A study of Mus musculus with 4 samples.

Results

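The genes described here encode MHC class I molecules and the machinery that fills them with peptide. They were taken as the rows whose symbol was in a chosen list of 10 (H2-K1, H2-D1, H2-T22, H2-T23, B2m, Tap1, Tap2, Tapbp, Nlrc5 and Erap1), and all 10 were found among the 16218 symbols of the count table. Each also passed the filter on low counts. RNA came from thyroids of NOD.H-2h4 mice, which are prone to autoimmune thyroiditis. The mice received either an antibody to PD-L1, which restrains T cells by engaging PD-1, or an isotype control IgG, 3 times a week for 2 weeks. There were 2 anti-PD-L1 libraries and 2 IgG libraries. No transgene, deletion or further agent is given for either group, and the age and sex of the mice are not stated. The batch field holds a clone string that is different for every library, and it could not be modelled. Anti-PD-L1 replicate 1 stood apart in Xist, the RNA of the inactive X chromosome (1.40 CPM, where the other libraries had 67.7 to 72.7 CPM), and in the Y-linked gene Ddx3y (62.6 CPM, where the others had 0.350 to 0.790 CPM). By these genes that thyroid reads as male and those of the other libraries as female, which the labels do not state. The sexes would then be unequal between the groups, and an effect of sex was not tested. The median log2 fold change of the 10 genes was 1.92 without anti-PD-L1 replicate 1 and 1.87 with it. The comparison asks which thyroid genes differ once PD-L1 is blocked.

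Class I molecules present peptides from inside the cell to CD8+ T cells. A polymorphic heavy chain pairs with the light chain beta-2 microglobulin in the endoplasmic reticulum. The TAP transporter brings in peptides made by the proteasome, tapasin holds the empty molecule next to TAP, and the aminopeptidase ERAP1 trims peptides to length. Most nucleated cells, thyroid follicular cells included, can make class I molecules, leukocytes make much of them, and interferon gamma raises their transcription, in part through the transactivator NLRC5, which acts at an SXY module in class I promoters. In whole tissue, fewer cells of a type and less RNA per cell cannot be told apart.

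Of the 10 genes, 7 lie on chromosome 17, in or next to the MHC. RefSeq promoters of GRCm38.p6, 250 bases before to 50 bases after the start, were matched for 8 of the 10 genes by symbol. Those of both classical heavy chains are shown because they share a run of elements, B2m and Tap1 because their RNA differed between the groups by close to the same factor, and Erap1 because its RNA differed least. Capitals mark matches to any of 5 motifs searched on both strands. These were the interferon regulatory factor core AANNGAAA, the gamma-activated site TTCNNNGAA, an NF-kB motif GGGNNTTCC, the X2-box core TGACGC and the CCAAT box CCAAT. The core AANNGAAA was chosen after the promoters had been seen.
H2-K1 promoter, chr17:34000298-34000597, minus strand: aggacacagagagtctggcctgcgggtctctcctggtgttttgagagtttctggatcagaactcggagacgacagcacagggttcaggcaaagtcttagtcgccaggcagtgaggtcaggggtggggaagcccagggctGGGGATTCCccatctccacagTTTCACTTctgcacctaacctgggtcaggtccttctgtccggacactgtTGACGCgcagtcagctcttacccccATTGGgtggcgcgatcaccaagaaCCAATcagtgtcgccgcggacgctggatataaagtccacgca
H2-D1 promoter, chr17:35262844-35263143, plus strand: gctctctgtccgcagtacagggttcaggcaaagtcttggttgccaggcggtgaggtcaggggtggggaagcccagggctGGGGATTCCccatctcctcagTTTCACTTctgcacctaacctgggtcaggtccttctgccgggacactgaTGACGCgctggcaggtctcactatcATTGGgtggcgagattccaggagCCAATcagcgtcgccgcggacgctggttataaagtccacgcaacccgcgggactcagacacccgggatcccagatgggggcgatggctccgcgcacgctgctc
B2m promoter, chr2:122147437-122147736, plus strand: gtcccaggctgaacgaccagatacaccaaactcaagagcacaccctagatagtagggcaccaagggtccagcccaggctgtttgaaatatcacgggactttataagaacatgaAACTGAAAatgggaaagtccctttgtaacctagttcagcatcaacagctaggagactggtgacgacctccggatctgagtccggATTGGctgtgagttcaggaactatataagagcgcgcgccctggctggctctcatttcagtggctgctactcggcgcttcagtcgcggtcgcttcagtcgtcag
Tap1 promoter, chr17:34187306-34187605, plus strand: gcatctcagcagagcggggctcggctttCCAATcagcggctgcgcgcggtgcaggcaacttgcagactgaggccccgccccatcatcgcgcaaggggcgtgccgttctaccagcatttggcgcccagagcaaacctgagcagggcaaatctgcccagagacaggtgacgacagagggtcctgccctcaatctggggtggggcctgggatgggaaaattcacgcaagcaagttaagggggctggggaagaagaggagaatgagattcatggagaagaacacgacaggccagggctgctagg
Erap1 promoter, chr13:74639603-74639902, plus strand: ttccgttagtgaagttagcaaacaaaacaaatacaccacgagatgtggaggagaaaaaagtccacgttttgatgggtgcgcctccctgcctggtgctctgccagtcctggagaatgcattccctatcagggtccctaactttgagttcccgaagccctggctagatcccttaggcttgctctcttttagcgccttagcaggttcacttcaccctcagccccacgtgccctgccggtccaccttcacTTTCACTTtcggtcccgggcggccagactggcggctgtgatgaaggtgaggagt
The H2-K1 and H2-D1 promoters held the NF-kB, interferon regulatory factor, X2 and CCAAT letters in the same order. In H2-K1 they began at positions -111, -90, -41 and -16 from the start, and in H2-D1 at -171, -150, -101 and -76, with a further CCAAT box in each. From another annotated start of H2-K1, the same elements began at -125, -104, -55 and -30. The positions thus depend on the start used. The NF-kB motif and the X2 core were each found in 2 of the 8 promoters, which were those of H2-K1 and H2-D1, against 5.85% and 7.44% of 32544 mouse promoters of that length. The AANNGAAA core was found in 6 of the 8 (B2m, Erap1, H2-D1, H2-K1, H2-T22 and H2-T23), against 23.9% of all promoters. The CCAAT box was found in 7 of the 8, against 37.4%, and TTCNNNGAA in 0 of the 8, against 8.33%. A match describes these letters in the C57BL/6J reference and is not evidence of binding. NOD.H-2h4 mice carry another MHC haplotype than that reference, so their own promoters on chromosome 17 may differ from the letters shown.

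The classical heavy chains, which carry most of the peptide presented to CD8+ T cells, had higher values in both anti-PD-L1 thyroids. H2-K1 (chromosome 17, 33996017 to 34000347) had 454 and 464 CPM in anti-PD-L1 thyroids, against 81.1 and 96.5 CPM in IgG thyroids. H2-D1 (chromosome 17, 35262730 to 35267499) had 2029 and 2136 CPM in anti-PD-L1 thyroids, against 549 and 590 CPM in IgG thyroids. In both genes the groups stood well apart, and the libraries of a group lay close to each other. The log2 fold changes were 2.37 ± 0.23 for H2-K1, a 5.17-fold higher level, and 1.87 ± 0.32 for H2-D1, a 3.66-fold higher level (SE, n = 2 per group). Neither passed with edgeR's quasi-likelihood test after Benjamini-Hochberg adjustment over all genes (adjusted p = 0.162 and 0.237), whereas DESeq2 called both (adjusted p = 7.215e-25 and 3.90e-20).

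The non-classical heavy chains were higher as well. H2-T23, which encodes Qa-1, the ligand of the CD94/NKG2A receptor of NK cells, had 432 and 412 CPM in anti-PD-L1 thyroids, against 102 and 111 CPM in IgG thyroids. H2-T22, whose product is recognised by some gamma delta T cells in mice, had 121 and 118 CPM in anti-PD-L1 thyroids, against 42.4 and 39.1 CPM in IgG thyroids. Again no library of either group came near the other group. The log2 fold change was 1.99 ± 0.21 for H2-T23 (edgeR adjusted p = 0.162) and 1.55 ± 0.15 for H2-T22 (edgeR adjusted p = 0.162), and DESeq2 called both.

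B2m, the light chain shared by all these heavy chains and encoded on chromosome 2 (122147686 to 122153083), had 1572 and 1526 CPM in anti-PD-L1 thyroids, against 346 and 388 CPM in IgG thyroids. Its log2 fold change of 2.08 ± 0.30, a 4.22-fold higher level, lay between those of H2-K1 and H2-D1 (edgeR adjusted p = 0.200, DESeq2 adjusted p = 2.08e-23). Together the 10 genes took 0.504% and 0.564% of all counts in the anti-PD-L1 libraries, against 0.144% and 0.149% in the IgG libraries.

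**Figure D1:**
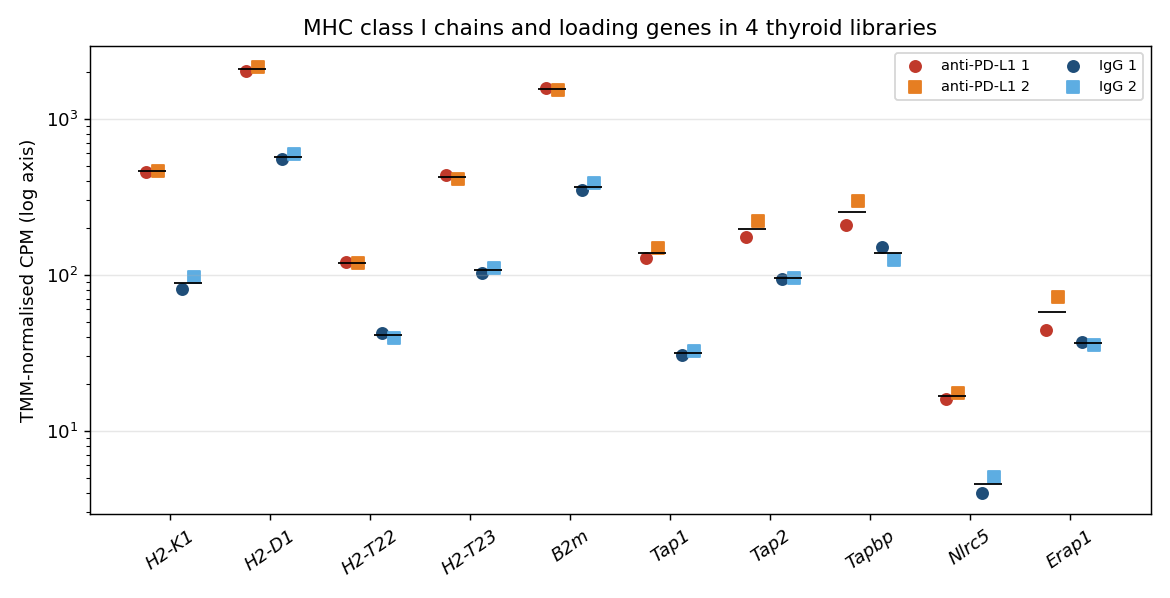
TMM-normalised CPM of the 10 genes on a log axis, with anti-PD-L1 libraries (red and orange) left of IgG libraries (dark and light blue) and a black line at each group's mean. The groups do not overlap for any gene, and the gap is narrowest for Erap1, with 43.9 CPM in anti-PD-L1 replicate 1 against 37.2 CPM in IgG replicate 1.

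The 2 subunits of the peptide transporter differed in how far they moved apart between the groups. Tap1 (chromosome 17, 34187553 to 34197225) had 128 and 148 CPM in anti-PD-L1 thyroids, against 30.6 and 32.3 CPM in IgG thyroids. Tap2 (34203527 to 34216321 on the same chromosome) had 175 and 219 CPM in anti-PD-L1 thyroids, against 93.4 and 95.8 CPM in IgG thyroids. Both subunits were higher in both anti-PD-L1 libraries. The log2 fold change was 2.13 ± 0.17 for Tap1 (edgeR adjusted p = 0.130, the lowest of the 10) and 1.06 ± 0.20 for Tap2 (edgeR adjusted p = 0.285, DESeq2 adjusted p = 0.000511). Per kilobase of the longest coding transcript, the ratio of Tap1 to Tap2 was 0.851 and 0.789 in the anti-PD-L1 libraries, against 0.382 and 0.394 in the IgG libraries. TAP works as a heterodimer of these subunits, and their RNAs were nearer to parity in the anti-PD-L1 libraries. Tap1 exons overlap an exon of Psmb9, which starts next to it, and Tap2 exons overlap those of predicted genes, and H2-T22, Tapbp and Nlrc5 exons also overlap other transcripts, so with no strand setting given some reads cannot be assigned to 1 gene.

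Tapasin and the trimming enzyme were higher by less. Tapbp, the gene of tapasin (chromosome 17, 33915899 to 33929292), had 208 and 296 CPM in anti-PD-L1 thyroids, against 150 and 123 CPM in IgG thyroids. Its log2 fold change was 0.88 ± 0.27 (edgeR adjusted p = 0.604, DESeq2 adjusted p = 0.0956). Erap1, on chromosome 13 (74639568 to 74693201), had 43.9 and 71.8 CPM in anti-PD-L1 thyroids, against 37.2 and 35.4 CPM in IgG thyroids. The groups did not overlap, but the anti-PD-L1 libraries were further from each other than replicate 1 was from the IgG libraries. The log2 fold change of Erap1 was 0.67 ± 0.27 (edgeR adjusted p = 0.901, DESeq2 adjusted p = 0.696), and it was 0.26 without anti-PD-L1 replicate 2 and 0.98 without anti-PD-L1 replicate 1. Erap1 exons overlap those of Cast, which had 43.4 and 33.2 CPM in anti-PD-L1 thyroids, against 49.4 and 40.3 CPM in IgG thyroids.

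Nlrc5, the class I transactivator (chromosome 8, 94434356 to 94527272), was the least abundant of the 10. It had 15.9 and 17.3 CPM in anti-PD-L1 thyroids, against 4.002 and 5.07 CPM in IgG thyroids. Its log2 fold change of 1.87 ± 0.21, a 3.67-fold higher level, was close to that of H2-D1 (edgeR adjusted p = 0.170, DESeq2 adjusted p = 2.18e-09).

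No gene of the table passed the edgeR threshold of 0.05 after adjustment (0% of 16217 tested), and 0 of the 10 did. DESeq2 called 8 of the 10 higher, all but Tapbp and Erap1, against 2.93% of all tested genes. At an unadjusted p under 0.05 edgeR gave 9 of the 10 higher, all but Erap1, against 4.96% of all tested genes. Both counts depended on which library was left out, as did the calls over all genes. The median edgeR log2 fold change of the 10 was 1.75 without IgG replicate 1 and 1.99 without IgG replicate 2. It was 1.81 without anti-PD-L1 replicate 2 and 1.92 without anti-PD-L1 replicate 1. The groups did not overlap in any of the 10, each being higher after anti-PD-L1, against 16.5% of all tested genes. Counts of genes higher with groups apart in the lists below are to be read against that same 16.5%, and DESeq2 calls against 2.93%. The median log2 fold change of the 10 was 1.87, beside 9.12e-05 over all tested genes. By unadjusted p they ranked between 17 (Tap1) and 1171 (Erap1) among the tested genes. With 2 libraries in each group, the smallest p that an exact permutation test can give is 0.333.

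Levels of different genes were compared as CPM per kilobase of the longest coding transcript. B2m was the most abundant, with a mean of 1802 in the anti-PD-L1 libraries and 427 in the IgG libraries, and H2-D1 came next with 991 in the anti-PD-L1 libraries and 271 in the IgG libraries. H2-T23 (294 and 280) and H2-K1 (281 and 287) overlapped in the anti-PD-L1 libraries, whereas in the IgG libraries H2-T23 (69.1 and 75.4) lay above H2-K1 (50.1 and 59.6). Tapbp followed, with 71.9 and 102 in the anti-PD-L1 libraries against 51.8 and 42.6 in the IgG libraries, where it overlapped H2-K1. H2-T22, Tap2 and Tap1 lay between 10.4 and 68.6 in all libraries. Erap1 had 7.78 and 12.7 in the anti-PD-L1 libraries against 6.59 and 6.27 in the IgG libraries, and Nlrc5 was lowest with 2.10 and 2.29 in the anti-PD-L1 libraries against 0.528 and 0.669 in the IgG libraries. The summed level of H2-K1 and H2-D1 over that of B2m was 0.681 and 0.734 in the anti-PD-L1 libraries, against 0.773 and 0.755 in the IgG libraries. H2-D1 exceeded H2-K1 by 3.44 and 3.55 times in the anti-PD-L1 libraries, against 5.21 and 4.71 times in the IgG libraries. These ratios leave out the H2-L row, described below, and whether that row holds reads of H2-D1 was not tested. The MHC haplotype of these mice is not that of the reference, and its effect on the reads counted for each heavy chain was not tested.

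The genes were split into 2 ranges of size, at cutoffs set after their values were seen. In 7 of them, namely H2-K1, Tap1, B2m, H2-T23, Nlrc5, H2-D1 and H2-T22, the log2 fold change was above 1.5. In the other 3, Tap2, Tapbp and Erap1, it was under 1.1. Ratios within a library do not depend on library scaling. Relative to B2m, the log2 ratio of Tap1 was -3.62 and -3.36 in the anti-PD-L1 libraries, against -3.50 and -3.58 in the IgG libraries, so the ranges overlapped (exact permutation p = 1, two-sided). The log2 ratio of Erap1 to B2m was -5.16 and -4.41 in the anti-PD-L1 libraries, against -3.22 and -3.45 in the IgG libraries. Tapbp had log2 ratios of -2.92 and -2.37 in the anti-PD-L1 libraries, against -1.21 and -1.65 in the IgG libraries. For Tap2 the log2 ratios were -3.16 and -2.80 in the anti-PD-L1 libraries, against -1.89 and -2.02 in the IgG libraries. For these 3 genes the anti-PD-L1 ratios lay below the IgG ratios, by 1.03 to 1.45 log2 units on average (exact permutation p = 0.333 for each, the smallest possible). The ratios of H2-D1, H2-T22, H2-T23 and Nlrc5 to B2m were also lower in both anti-PD-L1 libraries. Their mean differences were smaller, at -0.21, -0.53, -0.091 and -0.20 log2 units (exact permutation p = 0.333 for each). H2-K1 was the only gene of the 10 whose ratio to B2m was higher in both anti-PD-L1 libraries (-1.79 and -1.72, against -2.09 and -2.01 in the IgG libraries, exact permutation p = 0.333).

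**Figure D2:**
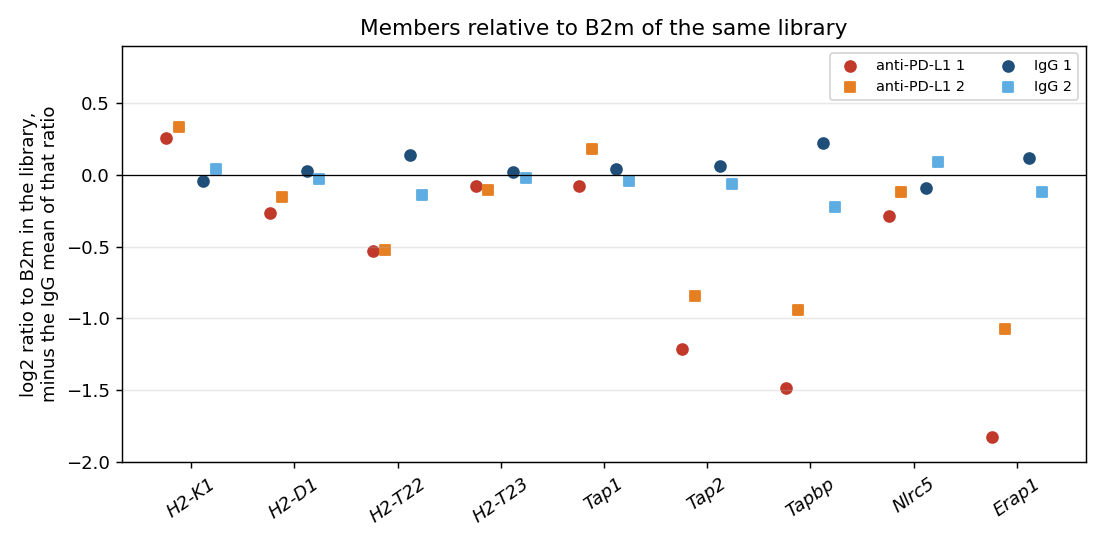
Log2 ratio of each gene to B2m of the same library, with the IgG mean of that ratio subtracted, so that 0 is the IgG mean. Anti-PD-L1 libraries (red and orange) lie left of IgG libraries (blue). Tap2, Tapbp and Erap1 fall furthest below 0 in the anti-PD-L1 libraries, while Tap1 straddles 0.

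Counts of heavy chains cannot be taken at face value gene by gene, because the MHC holds near-identical copies. Rows for H2-Q6 and H2-Q8 held the same count in every library, H2-Q7 and H2-Q9 differed by at most 2.65%, and H2-T22 and H2-T9 by at most 1.77%. H2-L, a heavy chain with no entry under that symbol in GENCODE M21, had 1298 and 1460 CPM in anti-PD-L1 thyroids, against 371 and 395 CPM in IgG thyroids. The ratio of H2-D1 to H2-L counts was 1.56 and 1.46 in the anti-PD-L1 libraries, against 1.48 and 1.496 in the IgG libraries. These pairs were chosen after their values were seen. Whether the H2-L row holds reads of H2-D1 was not tested. Of the distinct 75-base stretches of coding transcripts in GENCODE M21, 24.6% of those of H2-T22, 13.1% of those of H2-T23, 6.15% of those of H2-D1 and 1.12% of those of H2-K1 also occurred in a transcript of another gene. For B2m, Tap1, Tap2, Nlrc5 and Erap1 the share was 0%. H2-L, H2-Q8, H2-Q9 and H2-T9 have no entry under those symbols in GENCODE M21. Stretches shared with copies absent from that annotation are therefore not counted in these shares. Summing 20 class I heavy-chain rows of each library, H2-L not among them, into 1 row gave 2.05 as the log2 fold change (edgeR adjusted p = 0.288). It was 1.99 with H2-Q8, H2-Q9 and H2-T9 left out (edgeR adjusted p = 0.285). With H2-L and H2-K2 added to the 20 rows it was 2.001 (edgeR adjusted p = 0.336).

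Among the 16 other class I heavy chains of the chosen list that the table holds, 14 were higher after anti-PD-L1 with no overlap of the groups and 0 were lower, with a median log2 fold change of 1.61. edgeR called 0 of them over all genes and DESeq2 called 12 higher. H2-Q8, H2-Q9 and H2-T9, near-copies by count of H2-Q6, H2-Q7 and H2-T22, are entered separately in the 14, the 12 and the median. These are therefore not counts of independent genes. The class I rows H2-M10.3 and H2-M10.5 are not in that list, and both overlapped between the groups, with log2 fold changes of 0.17 ± 0.33 and -0.019 ± 0.25. Gm11127, also outside it, overlapped too (0.17 ± 0.31), and these 3 rows were chosen after their values were seen. H2-M3, which presents N-formylated bacterial peptides, had 24.8 and 22.02 CPM in anti-PD-L1 thyroids, against 7.15 and 7.58 CPM in IgG thyroids (log2 fold change 1.67 ± 0.17, edgeR adjusted p = 0.162). For H2-T9 it was 1.55 ± 0.15, as for its near-copy H2-T22 (edgeR adjusted p = 0.162). The H2-Q6 to H2-Q9 rows, chosen after their values were seen, had log2 fold changes from 3.13 ± 0.39 to 3.32 ± 0.48, and H2-M2, chosen likewise, had 3.15 ± 0.83. H2-Q7 had 252 and 199.8 CPM in anti-PD-L1 thyroids, against 13.9 and 31.5 CPM in IgG thyroids, and so differed more between the IgG mice than H2-K1 did. H2-Q10, made mainly by liver, overlapped between the groups, with 9.84 and 26.0 CPM in anti-PD-L1 thyroids and 13.01 and 17.98 CPM in IgG thyroids. It too was chosen after its values were seen.

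The steps before and after TAP differed between their inducible and constitutive parts. All 5 genes of the immunoproteasome and its PA28 activator were higher in both anti-PD-L1 libraries, with a median log2 fold change of 1.49, and edgeR called 0 and DESeq2 4 of them. Psmb8, a catalytic subunit, had 220.5 and 204 CPM in anti-PD-L1 thyroids, against 44.5 and 53.2 CPM in IgG thyroids. For Psmb10 the log2 fold change was 1.49 ± 0.17, with an edgeR adjusted p of 0.170. The constitutive catalytic subunits overlapped between the groups in 3 of 3 genes, with log2 fold changes of 0.088 ± 0.21 for Psmb5 and 0.061 ± 0.26 for Psmb6. Of 6 cytosolic peptidases, 1 lay higher with groups apart, where 16.5% of all tested genes did so. Another 2 lay lower with groups apart, and the share of all genes that did so was not counted. Lap3, an interferon-inducible leucine aminopeptidase, had a log2 fold change of 0.37 ± 0.15 and Thop1 one of -0.36 ± 0.20, and neither passed (edgeR adjusted p = 0.898 and 1).

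Among 7 loading chaperones and related genes, the groups were apart in 1, where 16.5% of all tested genes lay higher with groups apart. That gene was Tapbpl, which encodes the tapasin-related peptide editor TAPBPR. It had 40.7 and 39.7 CPM in anti-PD-L1 thyroids, against 21.7 and 20.3 CPM in IgG thyroids (log2 fold change 0.94 ± 0.14, edgeR adjusted p = 0.203, DESeq2 adjusted p = 0.000156). For Uggt1, the glucosyltransferase that checks folding, the log2 fold change was 0.23 ± 0.26, with an edgeR adjusted p of 1. The general chaperones that also serve class I molecules followed another order of libraries. Calr, the gene of calreticulin, had 1052 and 1987 CPM in anti-PD-L1 thyroids, against 1494 and 867 CPM in IgG thyroids. Pdia3, the gene of ERp57, had 687 and 1143 CPM in anti-PD-L1 thyroids, against 895 and 584 CPM in IgG thyroids. Both were highest in anti-PD-L1 replicate 2 and lowest in IgG replicate 2. These chaperones were chosen after their values were seen.

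**Figure D3:**
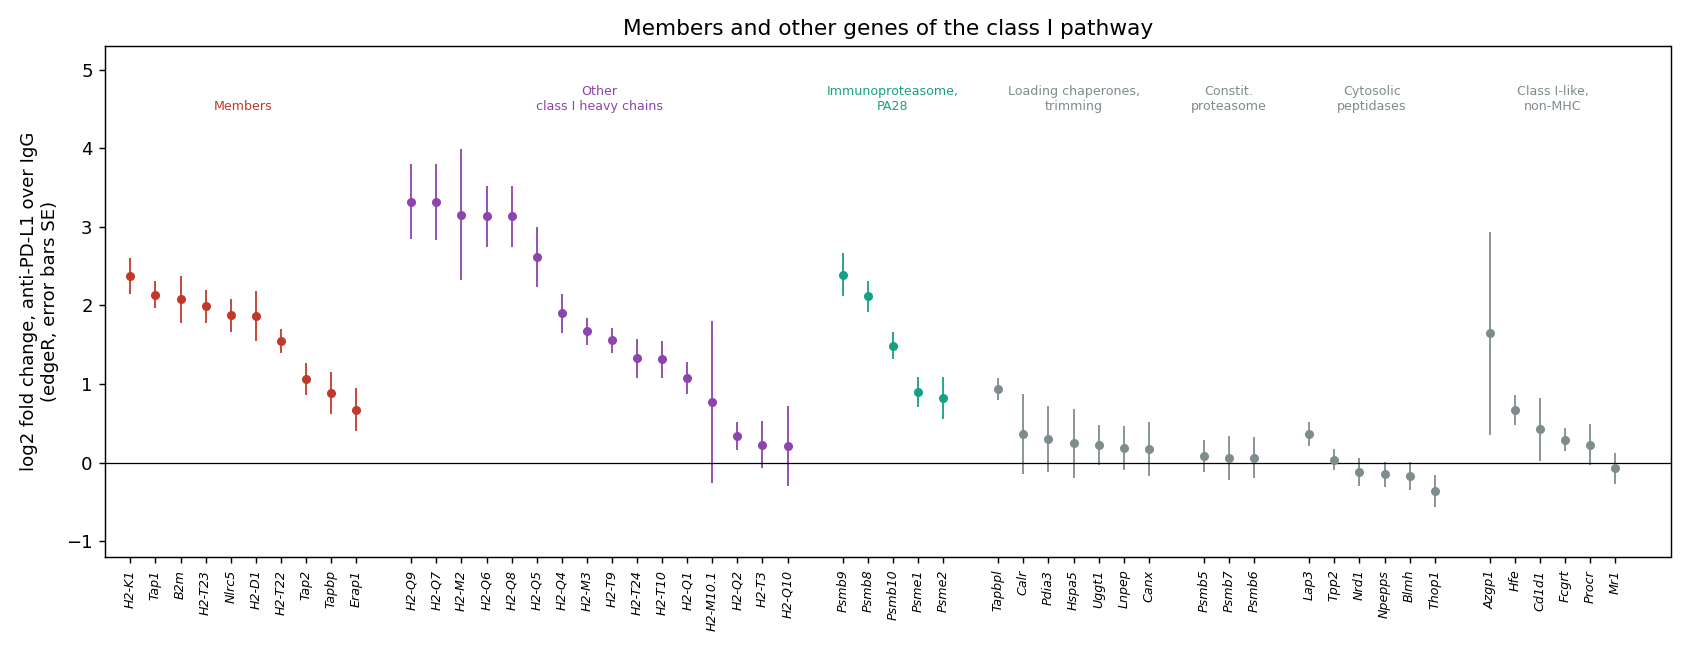
Log2 fold change of anti-PD-L1 over IgG for the 10 genes (red) and other class I pathway genes by list, each ordered by size, with standard errors from edgeR (n = 2 per group). Other heavy chains reach 3.32 and immunoproteasome genes 2.39, while the general chaperones, constitutive proteasome subunits and cytosolic peptidases lie between -0.36 and 0.37.

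Factors that act at class I promoters were measured in the same libraries. Irf1, an interferon-induced factor that binds such promoters, had 89.0 and 78.0 CPM in anti-PD-L1 thyroids, against 35.1 and 29.7 CPM in IgG thyroids (log2 fold change 1.37 ± 0.17, edgeR adjusted p = 0.172). The RFX subunits, with which NLRC5 and CIITA assemble, had log2 fold changes of 0.020 ± 0.19 for Rfx5, 0.088 ± 0.16 for Rfxap and 0.040 ± 0.15 for Rfxank. The groups were apart, by a narrow gap, in Rfxank and overlapped in Rfx5 and Rfxap, and these subunits were chosen after their values were seen.

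MHC class II genes present peptides to CD4+ T cells and are made mainly by antigen-presenting cells. All 9 class II genes, Ciita and Cd74 included, were higher after anti-PD-L1 with no overlap of the groups, with a median log2 fold change of 2.51. H2-Ab1 had 298 and 208 CPM in anti-PD-L1 thyroids, against 20.6 and 47.3 CPM in IgG thyroids, and H2-DMa had 97.7 and 78.3 CPM in anti-PD-L1 thyroids, against 9.55 and 21.7 CPM in IgG thyroids. The mice of a group were also compared with each other. The ratio of replicate 2 to replicate 1 across the 10 genes described here ran from 0.952 to 1.64 in the anti-PD-L1 group and from 0.822 to 1.27 in the IgG group. For class II genes it ran from 0.551 to 1.099 in the anti-PD-L1 group and from 1.93 to 6.54 in the IgG group. Between the IgG mice the 10 genes thus lay below the lowest class II ratio, but this did not hold for class I heavy chains at large. The 16 others ran from 0.226 to 2.65 in the anti-PD-L1 group and from 0.928 to 5.13 in the IgG group, where H2-Q5 to H2-Q9, H2-M10.1 and H2-M2 exceeded the lowest class II ratio. These 7 rows were singled out after their values were seen.

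**Figure D4:**
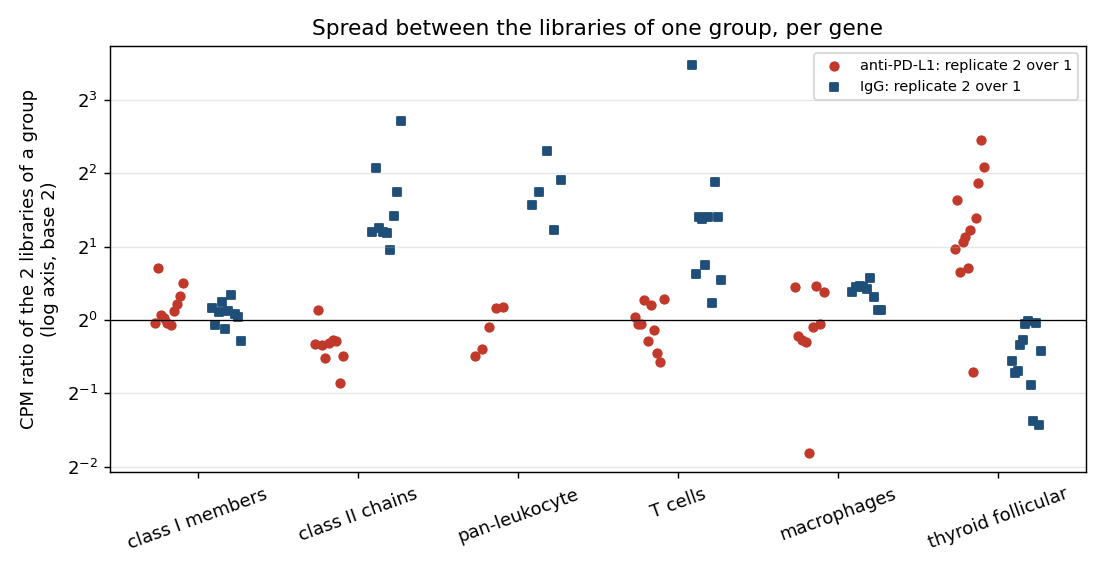
CPM of replicate 2 over that of replicate 1, per gene, on a log axis of base 2, for the anti-PD-L1 group (red, left) and the IgG group (blue, right). The 10 class I genes described here stay between 0.822 and 1.64 in both groups and macrophage genes between 1.099 and 1.48 in the IgG group, while class II and pan-leukocyte genes reach 1.93 to 6.54 between the IgG libraries and follicular genes spread widely in the anti-PD-L1 group.

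Marker genes of several leukocyte types were higher alongside the class I genes. All 5 pan-leukocyte genes were higher after anti-PD-L1 with no overlap of the groups, with summed levels of 538 and 519 CPM in anti-PD-L1 thyroids, against 65.9 and 214 CPM in IgG thyroids. Ptprc, which encodes CD45, had 99.1 and 112 CPM in anti-PD-L1 thyroids, against 11.4 and 42.6 CPM in IgG thyroids. Between the IgG mice Ptprc thus differed 3.75-fold and H2-K1 1.19-fold, while the 9 macrophage genes differed 1.099-fold to 1.48-fold. All 10 T cell genes were higher in the same sense (summed 149 and 151 CPM with anti-PD-L1 against 26.3 and 52.3 CPM with IgG), among them Cd3e (9.93 and 12.03 CPM with anti-PD-L1 against 1.16 and 3.03 CPM with IgG) and Cd8a (16.03 and 11.7 CPM with anti-PD-L1 against 0.775 and 2.85 CPM with IgG). Of 9 macrophage genes 8 were higher (summed 898 and 784 CPM with anti-PD-L1 against 238 and 315 CPM with IgG), with Adgre1 at 39.2 and 53.4 CPM with anti-PD-L1 against 9.78 and 12.7 CPM with IgG. Of 6 dendritic cell genes 4 were higher (summed 76.6 and 88.9 CPM with anti-PD-L1 against 15.4 and 26.6 CPM with IgG). All 6 B cell genes overlapped between the groups (summed 132 and 67.2 CPM with anti-PD-L1 against 38.5 and 105 CPM with IgG), with Cd79a at 47.4 and 21.1 CPM with anti-PD-L1 against 2.56 and 35.1 CPM with IgG. None of these markers was at 0 in any library. Their part in the class I values was not tested.

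Counted against Ptprc of the same library, H2-K1 had 4.59 and 4.14 times its level in the anti-PD-L1 libraries, against 7.13 and 2.26 times in the IgG libraries, and so showed no separation of the groups. The same held for H2-D1, H2-T22, H2-T23, B2m, Tap1 and Nlrc5. The other 3 genes were lower on this scale in both anti-PD-L1 libraries, with ratios of 1.77 and 1.96 in the anti-PD-L1 libraries against 8.21 and 2.25 in the IgG libraries for Tap2. For Tapbp the ratios were 2.10 and 2.64 in the anti-PD-L1 libraries, against 13.2 and 2.89 in the IgG libraries. For Erap1 they were 0.443 and 0.640 in the anti-PD-L1 libraries, against 3.27 and 0.830 in the IgG libraries. The IgG libraries were far from each other on this scale, as Ptprc itself was (11.4 and 42.6 CPM). Overlap on it therefore cannot show whether a gene followed leukocyte RNA, which was not tested. Counted against Tg, the thyroglobulin RNA of follicular cells, H2-K1 amounted to 0.0102 and 0.00286 of its level in the anti-PD-L1 libraries, against 0.000531 and 0.000649 in the IgG libraries. On that scale the groups were apart, but the anti-PD-L1 libraries were far from each other, as Tg itself was.

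The label of thyroid was borne out by follicular genes, although the libraries varied. Tg had 44666 and 162480 CPM in anti-PD-L1 thyroids, against 152767 and 148536 CPM in IgG thyroids. All 12 follicular genes overlapped between the groups, with summed levels of 46138 and 167234 CPM with anti-PD-L1 against 155797 and 150354 CPM with IgG. RNA of neighbouring tissues was present in all libraries. Summed levels ran from 58.7 to 10527 CPM for 6 squamous epithelial genes, 3566 to 23454 CPM for 6 mucosal gland genes, 14545 to 41513 CPM for 6 skeletal muscle genes, 29.9 to 138 CPM for 6 cartilage genes, 139 to 302 CPM for 5 adipocyte genes and 197 to 281 CPM for 5 endothelial genes. Of these, the 6 cartilage genes were lower in both anti-PD-L1 libraries, 1 adipocyte and 1 squamous gene were too, and all others overlapped. The share of all genes lower in this way was not counted. Total counts were 75591923 to 79663374.5 per library, so that 3 counts equal 0.0377 to 0.0397 CPM.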

How the data were processed

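Poly(A)-selected RNA of 4 thyroids was sequenced as paired-end Illumina libraries, per the labels' protocols. The authors deposited expected counts per gene symbol that are not normalized, and 20.5% of genes, 3 of the 10 described here among them, have a count ending in 0.5. BWA and mm10 are named in the submitters' processing notes, with no role or version. For the counting program, annotation, strand setting and handling of multiply matching reads, the answer is not given in the sources used here. Blank cells (13) were read as 0 and counts were rounded to whole numbers.

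The main test was edgeR 4.0.16 in R 4.3.3, on 16217 genes kept by filterByExpr, with TMM factors, robust dispersions and its quasi-likelihood test of the group term, two-sided, adjusted by Benjamini-Hochberg over all tested genes (threshold 0.05). Log2 fold changes are anti-PD-L1 over IgG, and a standard error is the absolute log2 fold change over the square root of F. CPM values are TMM-normalized, and log2 ratios use a prior count of 2. A list is described by counts and medians, without a test. Numbered titles are all that marks the replicates as separate mice, and p-values measure only the spread between these samples. The libraries of a group differed by more than sampling noise (chi-square over degrees of freedom of 1056 in the anti-PD-L1 pair and 321 in the IgG pair). The edgeR, DESeq2 and voom fits were also tested on simulated counts with known changes.

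DESeq2 1.42.0, limma voom from limma 3.58.1, other scalings and filters, the replicate number as a block and each library left out were the alternatives. Positions, transcript lengths and shared stretches came from GENCODE M21 on GRCm38, the assembly also called mm10, and promoters from RefSeq (GRCm38.p6). The 10 genes and all lists were chosen with earlier results of these data known. Named genes are all 10, the 2 of smallest p of each pathway list and the markers Tg, Ptprc, Cd3e, Cd8a, Adgre1 and Cd79a. Any other gene with values given is marked as chosen once its values were known. Xist, Ddx3y, Cast and Actb fall outside these rules and carry no such mark. Genes that these rules also select but that do not appear are not reported here.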

Additional observations from a re-analysis of the deposited data

How the results depend on the processing

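All 10 log2 fold changes were above 0 under every alternative fit, though not every ratio to a reference gene was. With 3 other scalings (RLE, upper-quartile, library size alone), thyroid follicular genes left out, no filter, the stricter filter and limma voom, edgeR or voom called 0 genes and 9 of the 10 had an unadjusted p under 0.05. DESeq2 called 528 genes and 8 of the 10, and the summed heavy chains with a log2 fold change of 2.04 (DESeq2 adjusted p = 2.71e-20). With each library left out in turn, DESeq2 called 227 to 1139 genes (227 without IgG replicate 1, 514 without IgG replicate 2, 790 without anti-PD-L1 replicate 2, 1139 without anti-PD-L1 replicate 1) and 7 to 10 of the 10, while the count of the 10 at an unadjusted edgeR p under 0.05 ranged from 5 to 10. These DESeq2 fits were chosen after seeing the data. An arm left with 1 library is assumed to vary like the other. The median over members of the change in log2 ratio was -0.21 relative to B2m, -0.50 relative to H2-K1 and 1.16 relative to Actb, which itself had 1166 and 1332 CPM in anti-PD-L1 thyroids, against 746 and 769.98 CPM in IgG thyroids. Relative to Actb, the change was -0.088 for Erap1 and 0.15 for Tapbp. Both of these overlapped between the groups, and the other members were higher with groups apart. The replicate numbers are not stated to pair mice, and the deviations of same-numbered libraries correlated across genes with r = 0.0999. With the replicate block edgeR called 0 genes, 8 of the 10 had an unadjusted p under 0.05 and the median log2 fold change was 1.88. With 2 libraries a group, the cause of each change of call was not tested.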

Other observations

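Class I-like molecules encoded outside the MHC, most of which also pair with beta-2 microglobulin, had smaller differences than B2m itself. Of 6 measured, 2 were higher after anti-PD-L1 with no overlap of the groups, where 16.5% of all tested genes were, and 4 overlapped. Hfe, the regulator of iron uptake, had 22.9 and 18.7 CPM in anti-PD-L1 thyroids, against 12.2 and 13.9 CPM in IgG thyroids (log2 fold change 0.67 ± 0.19, edgeR adjusted p = 0.537). Fcgrt, the heavy chain of the neonatal Fc receptor, which carries IgG, had 77.9 and 74.9 CPM in anti-PD-L1 thyroids, against 65.1 and 59.6 CPM in IgG thyroids (log2 fold change 0.29 ± 0.15, edgeR adjusted p = 1). Mr1, which presents vitamin B metabolites, overlapped between the groups, with 21.9 and 22.1 CPM in anti-PD-L1 thyroids and 20.04 and 26.2 CPM in IgG thyroids. Mr1 was chosen after its values were seen.

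Rows for 2 class I pseudogenes, also chosen after their values were seen, differed as the functional heavy chains did. H2-T-ps had 68.0 and 69.3 CPM in anti-PD-L1 thyroids, against 15.1 and 16.02 CPM in IgG thyroids (log2 fold change 2.14 ± 0.14, edgeR adjusted p = 0.0834), which placed it at rank 8 of all genes by p. H2-K2 had 3.42 and 2.33 CPM in anti-PD-L1 thyroids, against 0.788 and 0.696 CPM in IgG thyroids (log2 fold change 1.95 ± 0.33, edgeR adjusted p = 0.237). Whether reads of functional copies contribute to these rows was not tested.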
